A study of Mus musculus with 7 samples.

Results

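The mouse genome annotation gives the prefix Kcn to genes of potassium channels, and 84 of the 18194 genes measured here had a symbol beginning with it. They were chosen by symbol alone, and their level was taken as the median log2 value over the probe sets that map to that gene only. In all, 167 probe sets measured them, and 46 of the 84 genes had several. By biotype, 81 were protein-coding and 3 were long noncoding RNAs (Kcnq1ot1, Kcnmb4os1 and Kcnmb4os2) that carry the prefix without being channel subunits.

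Potassium channels let potassium leave the cell and so set the membrane potential. In the colon epithelium, potassium exit keeps up the electrical driving force for chloride secretion and for sodium uptake and recycles the potassium brought in by the sodium pump. In smooth muscle, interstitial cells and neurons the same kind of current sets excitability and limits firing or contraction. The pore is formed by one gene family or another (voltage-gated Kv, inward rectifier, calcium-activated, or leak channels with a pair of pore domains), and accessory subunits such as those of the KCNE family change its gating.

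The arrays measured colon of inbred C57BL/6 mice every day between embryonic day E13.5 and E18.5 (6 stages) and, as the adult stage, 8 weeks after birth, with total RNA and 1 array per stage. No animal was treated or carried an engineered allele. How many animals went into each RNA sample, and of which sex, is not given in the sources used here, and a stage has no replicate. All values below are log2 values after robust multi-array averaging (RMA), so a difference of 1 is a doubling. They rank stages within a gene and not genes against each other, since probes differ in brightness.

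Median gene level was 6.07 to 6.17 on the 7 arrays. The 5′ minus 3′ difference of the control probe sets, a measure of RNA length, was -2.41 for Gapdh in adult RNA, against -1.59 to -1.29 in embryonic RNA. For Actb it was -2.66 in adult RNA, against -2.14 to -1.96 in embryonic RNA. The adult array was therefore lower than every embryonic array for both, and the part of this in the adult differences below was not tested. Markers of colon cell types were measured on all arrays. The mean of 10 epithelial markers (Cdx2, Krt20, Vil1 and others) was 8.98 at E13.5, 10.73 at E18.5 and 11.33 for adult colon, and all 10 rose over the embryonic days. Lists of leukocyte, adipocyte and pancreatic acinar markers were also higher in the adult, as detailed where they touch a result.

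Change was tested with limma across all 18194 genes in a single fit. It gives each gene a slope per embryonic day, from the 6 embryonic arrays, and an adult difference, which is how far adult colon lies from the fitted line at E18.5. The scatter of the embryonic arrays around the line is the error, with 4 residual degrees of freedom, and the lone adult array is assumed to vary alike. Slopes passed where the p-value, adjusted by Benjamini-Hochberg over all genes, was under 0.05, and adult differences where it was under the same threshold and the difference was at least 2-fold.

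By this fit 4 potassium channel genes rose over the embryonic days: Kcnk1, Kcnk5, Kcnk6 and Kcnn4. Another 4 fell: Kcna1, Kcnab1, Kcnmb2 and Kcnq1ot1. Each count was 4.76% of the members, against 9.12% of all genes that rose and 10.4% that fell. In adult colon, 3 members were higher than the fitted E18.5 level (Kcnk6, Kcnn4 and Kcnq1), or 3.57% against 4.23% of all genes, and 1 was lower (Kcne1l), or 1.19% against 3.26%. The remaining 76 members did not pass the slope test. The median slope was 0.0032 log2 per day over the members and 0.000874 over all genes, and the median adult difference was 0.0323 over the members and 0.0334 over all genes. All of these shares lay below those of all genes, and all 4 members that rose belong to the colon epithelium list described next. Of the members, 65.5% lay below the median gene on all 7 arrays, against 41.5% of all genes. How far low values limited the calls was not tested.

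For 3 of the 4 genes that rose a RefSeq promoter was at hand, taken on build GRCm38.p6 from 250 bases before the annotated start to 50 bases after it and read 5′ to 3′ on the strand of the gene. They are shown as windows of genes whose level increased through development. The start used for Kcnk5 is the first base of the annotated gene, whereas those of Kcnk1 and Kcnn4 lie 1447 and 437 bases inside it, so other transcript starts of these 2 genes are not covered. A search on both strands covered AGATAA for factors of the GATA family, TTTATG for factors of the CDX family, GGGCGG for SP and KLF factors, TATAAA for the core promoter box and CAAAGTCCA for HNF4, none of which overlaps another in these windows. Capitals mark the only letters that matched, GGGCGG or its reverse complement. The Kcnk1 window is chr8:125994852-125995151 on the plus strand, that of Kcnk5 is chr14:20181733-20182032 on the minus strand, and that of Kcnn4 is chr7:24370013-24370312 on the plus strand.
Kcnk1: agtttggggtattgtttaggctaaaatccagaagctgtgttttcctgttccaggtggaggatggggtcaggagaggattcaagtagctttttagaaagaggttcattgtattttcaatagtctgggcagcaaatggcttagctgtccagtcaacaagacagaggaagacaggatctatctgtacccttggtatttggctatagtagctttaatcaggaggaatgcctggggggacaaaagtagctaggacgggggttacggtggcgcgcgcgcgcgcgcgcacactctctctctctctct
Kcnk5: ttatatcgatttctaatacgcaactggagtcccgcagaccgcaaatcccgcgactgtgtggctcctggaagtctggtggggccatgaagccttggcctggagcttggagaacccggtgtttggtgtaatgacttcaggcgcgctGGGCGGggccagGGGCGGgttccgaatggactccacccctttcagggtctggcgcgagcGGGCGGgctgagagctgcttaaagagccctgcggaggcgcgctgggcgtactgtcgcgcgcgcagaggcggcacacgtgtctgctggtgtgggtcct
Kcnn4: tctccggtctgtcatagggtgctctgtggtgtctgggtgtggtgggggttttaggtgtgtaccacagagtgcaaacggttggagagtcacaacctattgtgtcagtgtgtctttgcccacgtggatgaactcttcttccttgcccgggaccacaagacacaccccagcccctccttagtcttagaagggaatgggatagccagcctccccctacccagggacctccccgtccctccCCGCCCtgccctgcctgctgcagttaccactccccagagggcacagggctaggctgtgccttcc
Kcnk5 held GGGCGG at -106, -94 and -47 relative to the start, and Kcnn4 held it once, on the opposite strand, at -14. Kcnk1 held none of the searched letters and ended in repeats of short alternating units. GGGCGG occurred in 35.7% of the 32851 promoters of this length, AGATAA in 11.2%, TTTATG in 11.9%, TATAAA in 13.6% and CAAAGTCCA in 0.475%. G and C made up 49.0% of the Kcnk1 window, 63.7% of the Kcnk5 window and 59.7% of the Kcnn4 window, against a median of 52.7% over all promoters.

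The 6 genes set apart as those of the colon epithelium (Kcnq1, Kcne3, Kcnn4, Kcnk1, Kcnk5 and Kcnk6) were the list with the most calls. The lists were chosen with earlier results of these data known, so this count is not independent of the values. Of the 6, 4 rose over the embryonic days and 3 were higher in the adult, and all 6 had a positive slope and a positive adult difference. Their median slope was 0.215 log2 per day and their median adult difference 1.39, against the medians near 0 over all genes given above. Their mean level was 6.31, 6.61, 6.62, 7.16, 7.32 and 7.40 from E13.5 to E18.5 and 8.83 in adult colon. The 10 epithelial markers all rose over the same days, as given above. In the adult only 1 of the 10 was called higher, and their median adult difference was 0.26. In whole colon, more epithelial cells and more RNA per cell cannot be told apart. Leukocyte markers averaged 7.31 in adult colon, against 6.04 at E18.5 (4 of 5 called higher), adipocyte markers 6.91, against 5.63 (2 of 5), and pancreatic acinar markers 7.43, against 5.44 (4 of 4), and their part in the adult differences was not tested.

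**Figure D1:**
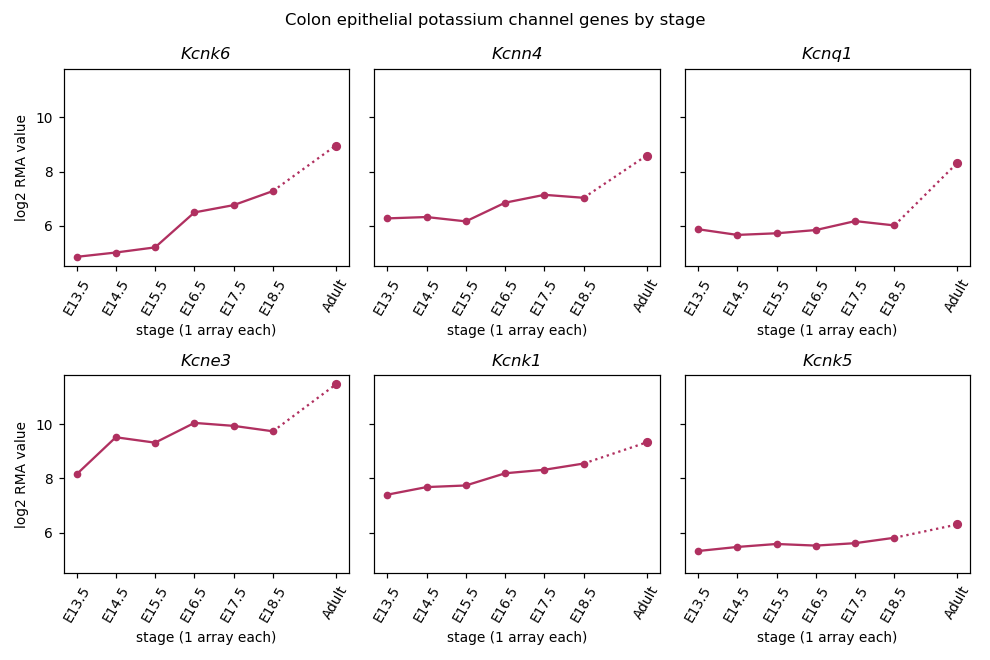
Log2 RMA value (y) at each of the 7 stages (x, 1 array per point) for the 6 colon epithelial potassium channel genes. Each gene is highest on the adult array, and Kcnk6 covers the widest range, 4.11 log2.

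Kcnk6 (chromosome 7, 29221928 to 29232522), a leak channel of the TWIK type, had the widest range of all members by the median over probe sets (4.11 log2). Its level was 4.85, 5.01, 5.20, 6.49, 6.76 and 7.28 from E13.5 to E18.5 and 8.96 in adult colon. Every stage was above the preceding one, with the largest embryonic step between E15.5 and E16.5. Kcnk6 rose by 0.53 ± 0.06 log2 per day (SE, adjusted p = 0.0025), and the E18.5 array was 5.40-fold above the E13.5 array. In the adult it stood 1.69 ± 0.30 log2 above the level fitted at E18.5 (SE, adjusted p = 0.0099), and the adult array was 3.21-fold above the E18.5 array. Only 1 probe set measured Kcnk6. With the brightest probe set of each gene, Kcnn4 ranged slightly more widely (4.14 log2), and a Kcnj16 probe set ranged over 4.41.

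Kcnk1, which encodes the related leak channel TWIK1, had 7.40, 7.68, 7.74, 8.19, 8.32 and 8.55 from E13.5 to E18.5 and 9.33 in the adult. No stage was below the one before it. Kcnk1 rose by 0.23 ± 0.02 log2 per day (SE, adjusted p = 0.0017), and the E18.5 array was 2.23-fold above the E13.5 array. The adult was 0.77 ± 0.12 log2 above the fitted level (SE, adjusted p = 0.0052), which is short of 2-fold. Both of its probe sets rose.

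Kcnn4 encodes the intermediate-conductance calcium-activated channel, through which calcium-raising secretagogues drive potassium exit. Its median level was 6.27, 6.32, 6.16, 6.85, 7.14 and 7.03 from E13.5 to E18.5 and 8.59 in adult colon. The first 3 stages lay close together, the next 3 higher, and the adult apart from all. It rose by 0.20 ± 0.05 log2 per day (SE, adjusted p = 0.027), and the adult difference was 1.47 ± 0.24 (SE, adjusted p = 0.0068). That slope was lost when any 1 of the arrays E13.5, E14.5, E16.5, E17.5 or E18.5 was left out, with an adjusted p of up to 0.089, while the adult call held. The brighter of its 2 probe sets had 6.52 at E13.5, 8.08 at E18.5 and 10.66 for adult colon, and the other had 6.02, 5.97 and 6.52 at the same stages.

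Kcnq1 and Kcne3 encode the pore and the accessory subunit of the basolateral channel that cAMP-driven chloride secretion relies on. Kcnq1 had 5.87, 5.66, 5.72, 5.84, 6.17 and 6.01 over the embryonic stages and 8.32 in the adult. It was thus near its lowest level throughout the embryo, and the adult array was 4.96-fold above E18.5. The slope of 0.07 ± 0.03 did not pass (adjusted p = 0.22), and the adult difference of 2.28 ± 0.17 log2 did (SE, adjusted p = 0.00028), the largest of the members by the median over probe sets. With the brightest probe set, Kcnn4 had the larger difference (2.49). Kcne3 had 8.15 at E13.5, 9.52, 9.32, 10.05, 9.94 and 9.74 at the following embryonic stages, and 11.47 in the adult. Here the first step, between E13.5 and E14.5, was the largest of the embryonic ones. Neither its slope of 0.28 ± 0.09 (adjusted p = 0.079) nor its adult difference of 1.31 ± 0.48 (adjusted p = 0.11) passed, and the difference did without the E13.5 array (1.55, adjusted p = 0.017). At E18.5 Kcne3 was 3.01-fold above E13.5 and Kcnq1 1.11-fold above it, and the difference between the genes was not tested. The Kcne3 value rests on the E13.5 array, without which its slope was 0.11 (adjusted p = 0.43).

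Kcnk5, the TASK2 channel that opens at alkaline pH outside the cell, had a median of 5.32, 5.47, 5.58, 5.52, 5.61 and 5.81 over the embryonic stages and 6.30 in the adult. It rose by 0.08 ± 0.02 log2 per day (SE, adjusted p = 0.039), the smallest of the 4 slopes. The call was lost in 7 of 10 alternatives (adjusted p up to 0.21). Neither of the 2 Kcnk5 probe sets passed for the slope when fitted alone (adjusted p = 0.075 and 0.27). The adult was 0.55 ± 0.11 above the fitted level (SE, adjusted p = 0.015), short of 2-fold, while the brighter probe set gave 8.07 in the adult against 7.16 at E18.5 and a difference of 1.07 (adjusted p = 0.0091).

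Smooth muscle and interstitial cells were represented by 10 of the 12 genes listed for them, and the rest were not analysed here. None of the 10 passed either test. Of the 10, 4 ranged over less than 0.5 log2 on the 7 arrays (40.0%, against 47.7% of all genes). Their median range was 0.75 log2, against 0.52 over all genes. Their median slope was -0.00963 and their median adult difference -0.0325. Over the same stages the mean of 10 smooth muscle markers (Myh11, Cnn1, Tagln and others) was 7.70 at E13.5, 8.90 at E18.5 and 9.22 for adult colon, and 7 of these markers rose. Interstitial markers were 8.03 at E13.5, 7.19 at E18.5 and 7.65 for adult colon on average, and 2 of the 3 measured fell.

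Kcna5, a Kv1 channel of smooth muscle, had 7.21, 7.17, 7.69, 7.19, 7.05 and 7.12 in the embryo and 6.21 in the adult. The adult lay below all embryonic stages. Its difference of -0.93 ± 0.24 (SE, adjusted p = 0.040) was short of 2-fold. Kcnk2, a stretch-sensitive leak channel, had 6.66, 6.76, 6.86, 6.32, 6.41 and 6.01 in the embryo and 5.68 in the adult, with a slope of -0.14 (adjusted p = 0.057). Leaving out the dimmest 25% of genes, centring the arrays or leaving out E15.5 took it past the threshold (adjusted p = 0.046, 0.043 and 0.027). Kcnq5, a Kv7 channel, had a median of 5.77, 6.00, 6.19, 5.54, 5.30 and 5.10 in the embryo and 4.78 in the adult (slope -0.17, adjusted p = 0.073). Kcnj8, the pore of the vascular and smooth muscle ATP-sensitive channel, had 7.25 at E13.5 and 7.81 to 8.28 at the other embryonic stages, with 7.82 in the adult (slope adjusted p = 0.16). These 4 genes, with Kcnma1 at 0.99, had the widest ranges of the list.

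The rest of the muscle list, Kcnma1 aside, varied little by the median over probe sets. Kcnj11, the other ATP-sensitive pore, ranged over 0.36 log2, Kcnn3, the small-conductance calcium-activated channel, over 0.26, Kcnh2, the ERG channel, over 0.41, and Kcnk3, the TASK1 leak channel, over 0.35. Kcnmb1, the beta1 subunit of the large-conductance (BK) channel, ranged over 0.51. Kcnma1, the BK pore, had a median over its 5 probe sets of 4.83, 5.30, 5.45, 5.82, 5.72 and 5.47 in the embryo and 5.79 in the adult, and did not pass (slope 0.14, adjusted p = 0.12). The probe sets of this gene are taken up below, since they differ.

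Neuronal members were 26 of the 30 listed, and the rest were not analysed here. A single one passed: Kcna1, a Kv1 channel, which fell. Their median slope was 0.00999 and median adult difference -0.0357. Of the 26, 17 (65.4%) ranged over less than 0.5 log2, against 47.7% of all genes. Their mean level was 5.40 at E13.5, 5.43 at E18.5 and 5.39 for adult colon. Among enteric neuron markers, the mean of the 9 measured (Tubb3, Snap25, Elavl4 and others) was 7.09 at E13.5, 8.03 at E18.5 and 6.75 for adult colon, 4 of them rose and 6 were lower in the adult.

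Of the neuronal members, Kcnt2, a sodium-activated channel, had the widest range. It had 6.99, 7.04, 7.79, 7.29, 6.76 and 6.58 in the embryo and 5.49 in the adult, so that the adult lay below all embryonic stages, yet the difference of -1.35 missed the threshold (adjusted p = 0.069). It passed with the mean of the fitted E17.5 and E18.5 levels as the baseline, and without E15.5. Kcnc2, a fast Kv3 channel, had 5.74, 5.86, 6.02, 5.67, 5.93 and 6.44 in the embryo and 5.52 in the adult (adult difference -0.67, adjusted p = 0.10). Kcna1 had a median of 5.0, 4.74, 4.57, 4.62, 4.41 and 4.49 in the embryo and 4.91 in the adult. It fell by 0.10 log2 per day (SE 0.03, adjusted p = 0.039), and the call was lost in 6 of 9 alternatives (adjusted p up to 0.25). Of the other members named for their range, Kcnf1 covered 0.67, Kcnmb4 0.61, Kcnq3 0.60, Kcnh7 0.54 and Kcnh3 0.53 log2.

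Of 2 members set apart as leukocyte channels, Kcna3 (the Kv1.3 channel of T cells) ranged over 0.39 log2 and Kcnk13 (a leak channel of microglia) over 0.30, and neither passed. This is beside leukocyte markers whose mean was 7.31 in the adult against 6.04 at E18.5, with 4 of 5 called higher. The list for stomach and kidney epithelia (Kcne2, Kcnj1, Kcnj10, Kcnj13, Kcnj15 and Kcnj16) likewise held no call, with a median slope of -0.0108 and a median adult difference of 0.185. In it, Kcne2, a subunit of the gastric parietal cell channel, had 5.30 in the adult against 4.55 at E18.5, with a difference of 0.64 from the fitted level (adjusted p = 0.032) that was short of 2-fold. Kcnj16 is taken up with the single-stage changes.

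**Figure D2:**
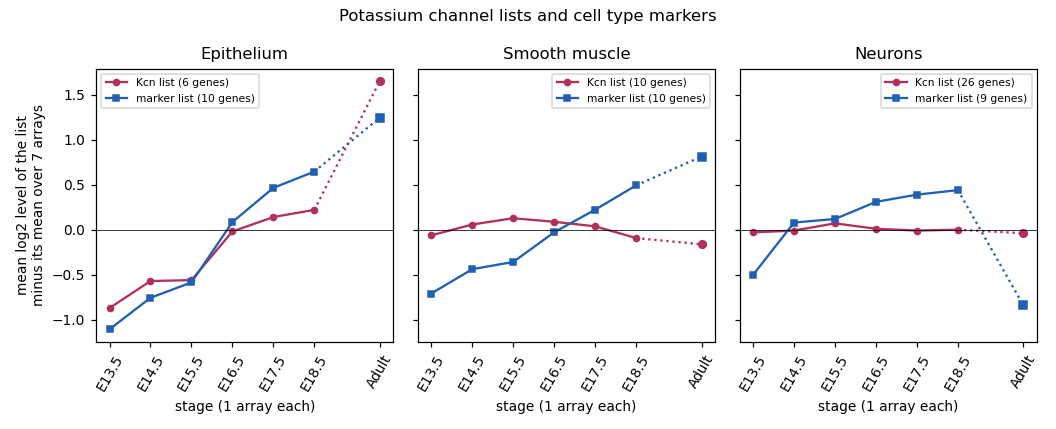
Mean log2 level of a list minus its own mean over the 7 arrays (y) by stage (x, 1 array each), with a panel each for epithelium, smooth muscle and neurons, in which one line is the potassium channel list and the other the marker list. The colon epithelium list stands at 8.83 in adult colon, against 7.40 at E18.5, and the neuronal list at 5.39, against 5.43.

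By family, the 12 leak (K2P) channels held 3 of the 4 rises (Kcnk1, Kcnk5 and Kcnk6) and ranged from 0.06 (Kcnk16) to 4.11 log2 (Kcnk6). The 15 inward rectifiers held no call and ranged from 0.14 to 2.42, led by Kcnj16 at 2.42, Kcnj8 at 1.04 and Kcnj12 at 0.68. Among 4 calcium-activated channels of small and intermediate conductance, Kcnn4 alone passed, and Kcnn2 and Kcnn3 ranged over 0.29 and 0.26. The 3 Kv7 members were Kcnq1 (2.67), Kcnq5 (1.41) and Kcnq3 (0.60). The 5 KCNE subunits ranged from 0.37 to 3.32, led by Kcne3, Kcne1l (1.70) and Kcne4 (1.54).

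The 7 Kv1 members ranged from 0.27 to 1.47 (Kcna5, then Kcna1 at 0.59 and Kcna4 at 0.51), the 3 Kv3 members from 0.15 to 0.92 and the 3 Kv4 members from 0.19 to 0.49 when the median of their probe sets was taken. The 9 silent Kv modulators, which form no channel alone, ranged from 0.07 to 0.67 (Kcnf1, then Kcnv2 at 0.50 and Kcns3 at 0.33). The 6 EAG and ERG members ranged from 0.19 to 0.54 and the 4 Kv4-interacting proteins from 0.16 to 0.42. The 4 large-conductance (Slo) members ranged from 0.32 to 2.30, the 3 BK beta subunits from 0.51 to 1.02, the 3 Kv beta subunits from 0.08 to 0.67 and the 3 noncoding RNAs from 0.40 to 1.46. Over all 84 members the median range was 0.41 log2, against 0.52 over all genes, and 15 members (17.9%) ranged over 1 log2 or more, against 23.5% of all genes.

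**Figure D3:**
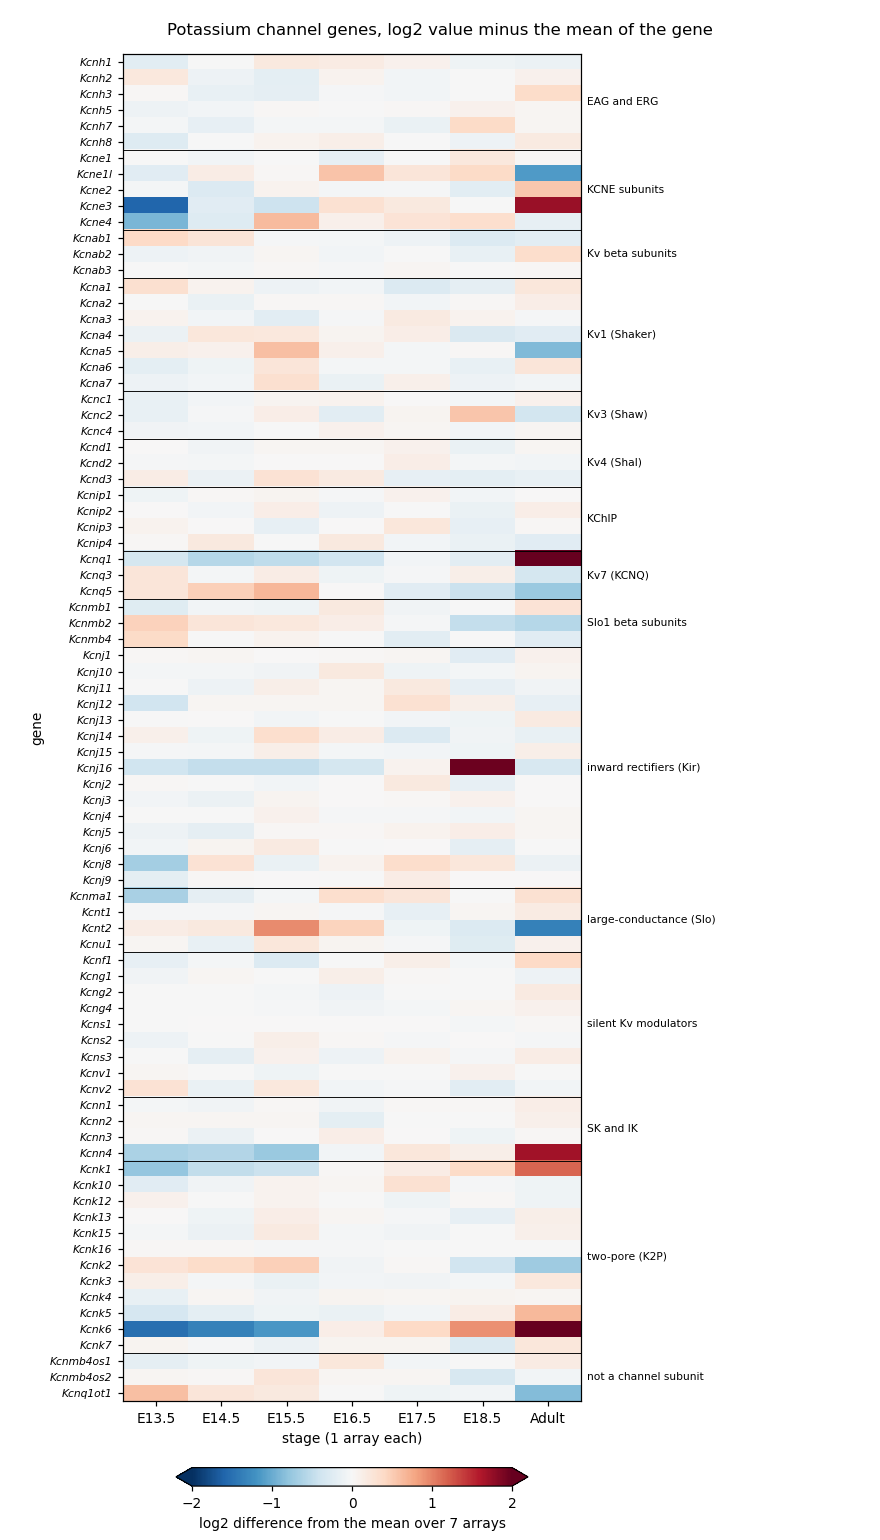
Heat map of the 84 members (rows, grouped by channel family) over the 7 stages (columns, 1 array each), coloured by log2 value minus the mean of that gene. Kcnk6, Kcne3 and Kcnq1 in adult colon and Kcnj16 at E18.5 stand out. Of the 84 rows, 51 (60.7%) span less than 0.5 log2, against 47.7% of all genes.

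The members that fell were accessory subunits and a noncoding RNA besides Kcna1. Kcnmb2, the BK beta2 subunit that inactivates the channel, had 5.85, 5.63, 5.60, 5.52, 5.36 and 4.90 in the embryo and 4.82 in the adult, each stage below the one before. It fell by 0.16 log2 per day (SE 0.03, adjusted p = 0.012). Kcnab1, a Kv beta subunit, had 5.19, 5.05, 4.76, 4.75, 4.69 and 4.51 in the embryo and 4.57 in the adult, and fell by 0.13 log2 per day (SE 0.02, adjusted p = 0.0094). Neither slope passed without E13.5 or without E18.5. Kcnq1ot1, the imprinted noncoding RNA that runs antisense within Kcnq1, had 7.81, 7.45, 7.40, 7.20, 7.12 and 7.15 in the embryo and 6.35 in the adult. It fell by 0.13 log2 per day (SE 0.03, adjusted p = 0.017). This slope did not pass with the highest probe set (adjusted p = 0.99), without E13.5 or without E17.5. Fitted alone, none of the 6 Kcnq1ot1 probe sets passed for the slope (adjusted p = 0.06 to 0.99), so the call rests on their median. Since the 2 genes overlap, which strand each probe set reads was not checked here.

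Kcne1l, an X-linked KCNE subunit also known as Kcne5, was the one member called lower in the adult. It had 6.07, 6.45, 6.33, 6.87, 6.54 and 6.68 in the embryo and 5.17 in the adult. The adult array was below every embryonic one and 0.351-fold of E18.5. The adult difference was -1.60 ± 0.22 log2 (SE, adjusted p = 0.0033). Kcne4, a KCNE subunit that inhibits several Kv channels, had 6.94, 7.60, 8.49, 7.97, 8.14 and 8.19 in the embryo and 7.70 in the adult, and did not pass (slope 0.21, adjusted p = 0.12).

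**Figure D4:**
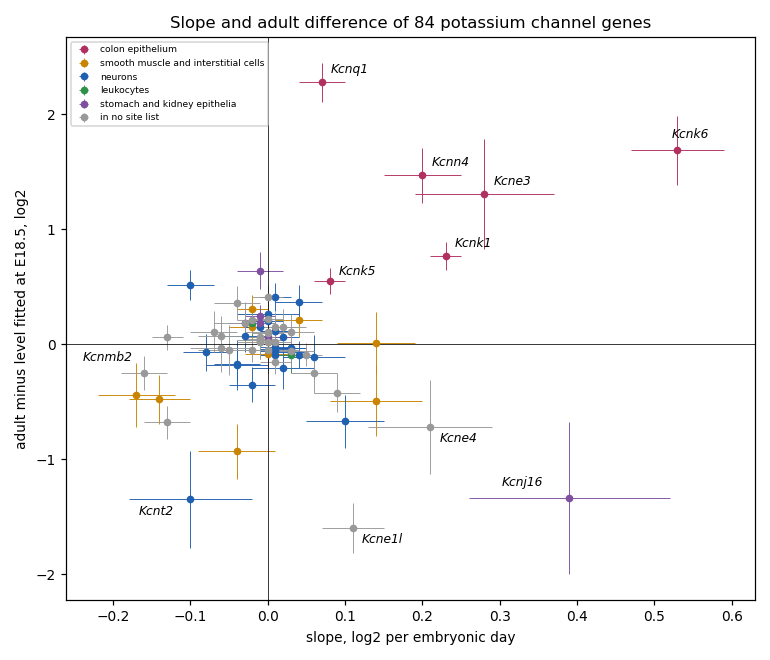
Slope in log2 per embryonic day (x) against the adult difference in log2 (y) for each of the 84 members, coloured by list, with bars of 1 SE. Kcnk6, Kcnn4 and Kcnq1 lie highest, Kcne1l, Kcnt2 and Kcnj16 lowest, and most members lie close to 0 on both axes.

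Between neighbouring stages a 2-fold step was rare by the median over probe sets, on which the counts of this paragraph rest. Kcne3 at E14.5 over E13.5 (1.37 log2), Kcnk6 at E16.5 over E15.5 (1.29) and Kcnj16 at E18.5 over E17.5 (1.88) were the only such embryonic steps among the members, while 0.324%, 1.01% and 0.368% of all genes were 2-fold higher at these steps. No member took such a step at E15.5 over E14.5 or at E17.5 over E16.5, where 0.0934% and 0.649% of all genes were higher, and none was 2-fold lower at any embryonic step, where 0.0% to 0.308% of all genes were. In the adult, 4 members were at least 2-fold above E18.5 (Kcnq1 by 2.31, Kcne3 by 1.74, Kcnk6 by 1.68 and Kcnn4 by 1.56 log2) and 3 at least 2-fold below it (Kcnj16 by -2.27, Kcne1l by -1.51 and Kcnt2 by -1.10), where 4.33% and 3.84% of all genes were. With the brightest probe set the embryonic steps were partly others. Kcnma1 went from 6.86 at E13.5 to 8.02 at E14.5. Kcnq1ot1 went from 10.03 at E14.5 to 8.95 at E15.5 and 10.12 at E16.5. Kcnj16 had 5.45 at E17.5 and 5.86 at E18.5. All these steps compare single arrays and carry no test.

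Kcnj16, the inward rectifier Kir5.1 that pairs with Kir4.1 in kidney and glia, had 5.0, 4.93, 4.93, 5.06 and 5.48 over the first 5 stages, 7.36 at E18.5 and 5.08 in adult colon. Only the E18.5 array was high. Its 2 probe sets differed there, with 8.86 in one and 5.86 in the other. The slope (0.39, adjusted p = 0.082) and adult difference (-1.34 ± 0.66, SE, adjusted p = 0.23) did not pass, and with 1 array the E18.5 level cannot be checked against a replicate.

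A rank correlation with the order of the 7 stages above 0.9 in size was found for 7 members. Kcnk1 and Kcnk6 had a Spearman correlation of 1.0, Kcnk5 0.964 and Kcnh5 0.929, while Kcnmb2 had -1.0 and Kcnab1 and Kcnq1ot1 -0.964. Of all genes 6.5% passed that mark rising and 7.73% falling. Kcnk1 and Kcnk6 were also among the 1000 of those that passed whose median absolute deviation was largest, and Kcnh5, an EAG channel, passed with a range of 0.19 log2. It is a description over 7 arrays and carries no p.

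Probe sets of the same member could differ, which the median hides. Of the 46 members with several probe sets, 12 had at least 1 called when each probe set was fitted on its own. This fit was chosen after the values were seen. In 11 of the 12 the other probe sets of the gene were not all called. The same counts over all genes with several probe sets were not made, so these counts do not set the members apart. Among the 167 probe sets, 7 rose and 4 fell, where 7.24% and 9.55% of all 34958 did, and 5 were higher and 5 lower in the adult, where 3.94% and 4.21% were. No gene had probe sets called in opposite directions over the embryonic days. What distinguishes the probe sets of a gene, such as a transcript end or an isoform, was not examined.

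The brightest of the 5 Kcnma1 probe sets had 6.86, 8.02, 8.65, 8.87, 9.31 and 9.42 in the embryo and 10.11 in the adult, each stage above the one before. It rose by 0.48 ± 0.07 log2 per day (SE, adjusted p = 0.0061), and the E18.5 array was 5.89-fold above the E13.5 array. Over the same days 7 of the 10 smooth muscle markers and all 10 epithelial markers rose. Which cells this Kcnma1 signal came from was not tested. In the dimmest of the 5 the range was 0.19 log2. For Kcnd3, the Kv4.3 channel, the brightest of 4 probe sets had 11.47, 11.48, 11.50, 11.01, 10.74 and 10.65 in the embryo and 8.62 in the adult. It fell by 0.20 log2 per day (SE 0.04, adjusted p = 0.013), and the adult was -2.04 ± 0.18 log2 from the fitted level (SE, adjusted p = 0.00074), or 0.244-fold of E18.5, whereas the median over its probe sets ranged over 0.49.

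Kcnq5 had a bright probe set of 8.08, 8.22, 8.77, 8.01, 7.93 and 7.84 in the embryo and 6.63 in the adult, with an adult difference of -1.31 (adjusted p = 0.038). The brighter Kcnmb2 probe set had 6.42, 5.97, 5.96, 5.45, 5.45 and 4.63 in the embryo and 4.42 in the adult and fell by 0.31 log2 per day (adjusted p = 0.0054), while the other was flat (slope -0.01, adjusted p = 0.94). With the brightest probe set per gene, 6 members rose (Kcnj3, Kcnj5, Kcnk1, Kcnk6, Kcnma1 and Kcnn4), 3 fell (Kcnab1, Kcnd3 and Kcnmb2), 4 were higher in the adult (Kcnk5, Kcnk6, Kcnn4 and Kcnq1) and 3 were lower (Kcnd3, Kcne1l and Kcnq5), where 10.4%, 10.6%, 5.15% and 5.52% of all genes were.

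**Figure D5:**
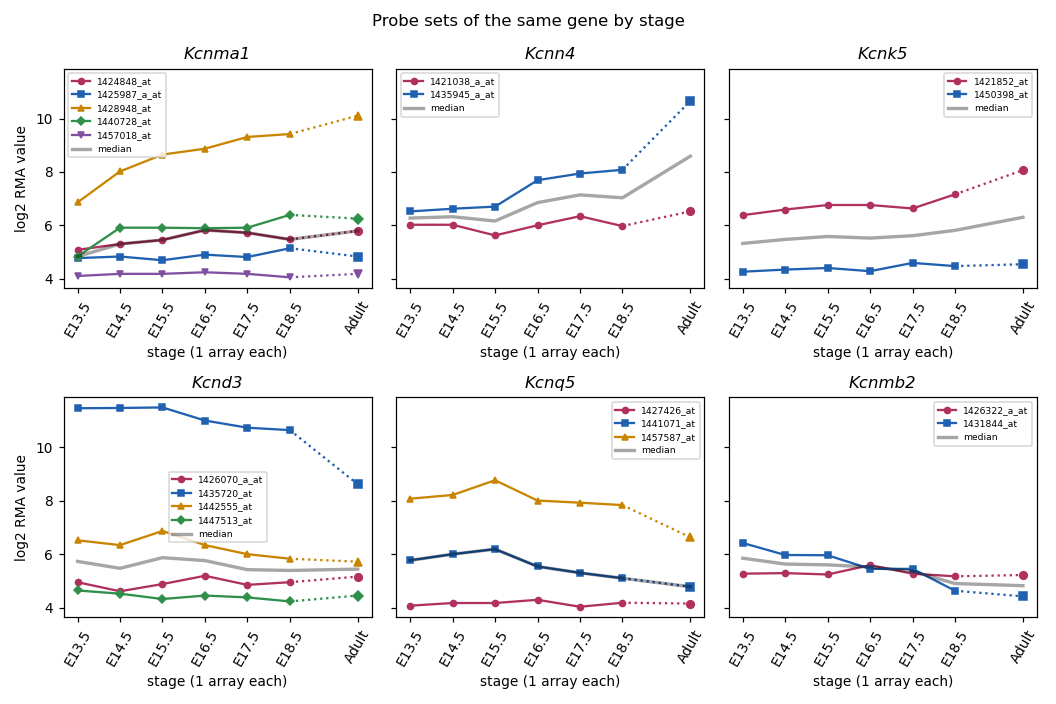
Log2 RMA value (y) by stage (x, 1 array each) for each probe set of Kcnma1, Kcnn4, Kcnk5, Kcnd3, Kcnq5 and Kcnmb2 (1 panel a gene, coloured lines), with the median over the probe sets as a broad grey line. The bright Kcnma1 and Kcnd3 lines move by 3.25 and 2.88 log2 over the 7 arrays while their medians move by 0.99 and 0.49.

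Of the partner subunits not named Kcn, 8 of the 9 listed were measured, none rose or fell over the embryonic days and 1 was higher in the adult. That one was Lrrc26, the gamma subunit that lets BK channels open at rest in secretory epithelia. It had 6.37, 6.63, 6.00, 6.83, 7.27 and 7.50 in the embryo and 8.84 in the adult, with a slope of 0.24 ± 0.07 (adjusted p = 0.054) and an adult difference of 1.47 ± 0.36 (SE, adjusted p = 0.032). Abcc9, the sulfonylurea receptor that pairs with Kcnj8, had 7.45 to 7.80 in the embryo and 7.10 in the adult and did not pass. Abcc8, Amigo1, Dpp6, Dpp10, Lrrc38 and Lrrc52 ranged over 0.17 to 0.41 log2.

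Potassium exit in the colon works with a set of ion transporters, of which 7 of the 8 listed were measured. Of these, 3 rose: Atp1b1, the sodium pump beta subunit, Atp12a, the colonic proton-potassium pump, and Scnn1a, the alpha subunit of the epithelial sodium channel. Atp1b1 had 6.78, 7.04, 7.13, 9.12, 9.93 and 10.64 in the embryo and 11.63 in the adult (slope 0.86 ± 0.10 SE, adjusted p = 0.0027). Atp12a had 4.76, 4.52, 5.38, 6.78, 9.45 and 10.62 in the embryo and 10.20 in the adult (slope 1.30 ± 0.17 SE, adjusted p = 0.0038). With its brightest probe set Atp1b1 rose as well (slope 0.48, adjusted p = 0.0056), but by another course, with 9.65, 10.75, 11.40, 11.77, 12.14 and 12.12 in the embryo and 12.46 in the adult. Scnn1a had 4.81 to 5.07 until E17.5, 5.39 at E18.5 and 6.58 in adult colon, and was the only one of the list called higher in the adult (difference 1.29 ± 0.12 SE, adjusted p = 0.00064). Slc12a2, the sodium-potassium-chloride cotransporter, had 7.13 at E13.5, 8.13 at E18.5 and 8.48 for adult colon (slope 0.19, adjusted p = 0.076). Its brightest probe set rose (slope 0.13 ± 0.02 SE, adjusted p = 0.0087) and stood at 10.60 on E13.5, 11.24 on E18.5 and 11.52 in adult colon, so that 4 of the 7 rose when the brightest probe set was taken. Cftr, the chloride channel, had 5.83, 6.35 and 6.87 at the same stages (slope 0.08, adjusted p = 0.28). The brightest Cftr probe set had 7.66, 8.75 and 9.73 there and did not pass either (slope 0.17, adjusted p = 0.21). Scnn1b and Scnn1g, the other subunits of the sodium channel, ranged over 0.93 and 0.39 log2 and did not pass.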

How the data were processed

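Colon RNA of C57BL/6 mice at 7 stages was hybridised to Affymetrix mouse expression arrays, 1 per stage. The authors normalised the arrays by RMA and deposited log2 values for 45101 probe sets, using affy 1.22.1 in R 2.9.2 per the submitters' processing notes. Probe sets were named from the platform annotation: 34958 map to one gene, 932 to several and 9211 to none. Symbols were updated through RefSeq (GRCm38.p6), which matched 18033 of 18195 gene IDs. A gene's level is the median over its single-gene probe sets, and probe sets of several genes were left out.

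The 18194 genes were fitted with limma 3.58.1 in R 4.3.3 as stated in the results, after a check on simulated data. Members and gene lists were chosen with earlier results of these data known. Named genes are all measured members of the colon epithelium, muscle and interstitial, and leukocyte lists, up to 10 called members per test and direction, up to 3 members of widest range per family and 8 neuronal members, and all partner genes. Alternatives were the highest probe set, no dim genes (the dimmest 25%), centred arrays, eBayes with trend and robust, another adult baseline, each embryonic array left out, and each probe set fitted alone. Precision is limited by having 7 arrays and no replicate. The p-values weigh a change against the scatter of the embryonic arrays around a line, not against the spread among animals of a stage.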

Additional observations from a re-analysis of the deposited data

How the results depend on the processing

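The slopes of Kcnk1 and Kcnk6 passed in all 10 alternatives, and the adult calls of Kcnk6, Kcnn4, Kcnq1 and Kcne1l in all 11. These counts leave out the fits of each probe set alone, where the dimmer Kcnn4 probe set did not pass (adult difference 0.44, adjusted p = 0.31). Over the fits that leave out 1 embryonic array each, the number of members that rose was 2 to 5, that fell 1 to 6, higher in the adult 3 to 4 and lower in the adult 1 to 2, against 4, 4, 3 and 1 with all arrays. Without E13.5, E16.5 or E17.5 the members that rose were Kcnk1 and Kcnk6 alone. Without E18.5 the only faller was Kcnq1ot1, and without E13.5 only Kcnq5, which is not among the 4 with all arrays. Members lower in the adult numbered 3 with the highest probe set and 2 with the mean of the levels fitted at E17.5 and E18.5 as the baseline. With the fits of each probe set alone left aside, no called member changed direction under these alternatives. Fitted alone, a probe set of Kcna1 had a slope of 0.01 (adjusted p = 0.85), while its median fell. Some values that passed no test changed sign, such as the adult difference of Kcnk3 (0.31, and -0.27 with the highest probe set, adjusted p = 0.17). With all arrays, the other counts stayed within 1.5 times under every alternative. Dropping the dimmest 25% of genes removed Kcna1 and Kcnab1 from the fit, so they have no value there. eBayes with trend and robust changed no call. The cause of these changes was not tested. No paired analysis was possible because each stage has 1 array and the stages share no replicate. The deposited values hold no background signal, so which members lie near background was not tested.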

Other observations

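The 6 probe sets of Kcnq1ot1 did not move alike. In the adult, 1 of them differed from the fitted E18.5 level by -2.18 log2 (adjusted p = 0.0006), another by -1.78 (adjusted p = 0.0039) and a further one by 0.80 (adjusted p = 0.0094), short of 2-fold. The brightest had 8.46 in the adult, against 10.05 at E18.5.

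Of the 4 Kcna1 probe sets, 1 had 5.45, 4.91, 4.69, 4.65, 4.37 and 4.35 in the embryo and 5.25 in the adult. It fell over the embryonic days (slope -0.20, adjusted p = 0.010) and was 1.02 log2 above the fitted E18.5 level in the adult (adjusted p = 0.0096). The atrial and neuronal G-protein-gated rectifiers Kcnj5 and Kcnj3, singled out once their values were known, had slopes of 0.09 and 0.16 with their brightest probe sets (adjusted p = 0.028 and 0.038), with 4.68 and 4.31 in the adult, against 4.88 and 5.01 at E18.5.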
